A study of Mus musculus with 6 samples.

Results

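The ribosomal protein genes encode the protein subunits of the cytosolic ribosome. They were taken as the protein-coding genes whose mouse symbol is Rpl or Rps followed by a number, with an optional letter or copy suffix, together with Rplp0, Rplp1, Rplp2 and Rpsa. The rule used names and no measured value. It gave 84 of the 23462 genes named on the array, carried by 149 of 56605 probes, and these were all 84 genes that the rule finds in the reference annotation. The set held 43 large-subunit genes, 31 small-subunit genes, 3 genes of the stalk, and 7 paralogues of core subunits (Rpl3l, Rpl7l1, Rpl10l, Rpl22l1, Rpl32l, Rpl39l and Rps27l). Rps4l is annotated as a transcribed pseudogene and was not a member.

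The series compared the colon of 3 control mice with that of 3 mice carrying a knockout of Islr, whose product is a secreted protein of leucine-rich repeats and an immunoglobulin-type domain. All 6 mice were male, and according to the sample source all had drunk 3.5% dextran sulfate sodium (DSS), which injures the colonic epithelium, for 5 days and had then recovered for 1 day. A separate treatment field of the labels states that no treatment was given. Age, strain, the control's exact genotype, and the promoter or cell type of any Cre are not given in the sources used here. The design text mentions a flow separation into TRIzol and names no gate.

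A ribosome reads messenger RNA on its small subunit and joins amino acids on its large subunit, and the stalk of the large subunit recruits the translation factors. Ribosomal protein genes are transcribed at high and matched levels in nearly all cells. Their mRNAs carry a 5′ terminal oligopyrimidine (TOP) motif, a C at the cap followed by an unbroken run of C and T (U in the RNA), through which mTOR and LARP1 control how well they are translated. The motif acts on translation, which an RNA array does not measure.

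The start is shown here for members with and without the run at RefSeq's annotated position, a feature that the choice by name did not use. RefSeq promoter windows of 300 bases (250 before the annotated start and 50 after it, build GRCm38.p6) were at hand for 64 of the 84 members, with 76 windows in all. In the stretches below, 40 bases lie before the annotated start and the remaining 20 begin at it. Capitals mark the C and pyrimidine run nearest the annotated start. At least 5 bases had to read from a C within 10 bases of that start. Bases before the C were not checked, so the whole pyrimidine stretch can begin further upstream. Rps6, Rps27, Rps15a and Rplp2 have a run read from the start base itself. In each of them the base before it is also a C or T. Rpl37 and Rplp0 have none by this rule at the annotated position, and the paralogues Rpl22l1 and Rps27l have it displaced by 3 and 1 bases.
Rps6 (GRCm38.p6, chr4:86857348-86857407, minus strand): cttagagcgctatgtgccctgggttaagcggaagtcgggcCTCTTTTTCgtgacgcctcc
Rps27 (GRCm38.p6, chr3:90213629-90213688, minus strand): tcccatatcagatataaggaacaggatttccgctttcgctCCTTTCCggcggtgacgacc
Rps15a (GRCm38.p6, chr7:118116128-118116187, minus strand): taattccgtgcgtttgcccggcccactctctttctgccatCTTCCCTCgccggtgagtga
Rplp2 (GRCm38.p6, chr7:141447611-141447670, plus strand): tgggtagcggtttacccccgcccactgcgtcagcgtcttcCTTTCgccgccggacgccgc
Rpl37 (GRCm38.p6, chr15:5116573-5116632, plus strand): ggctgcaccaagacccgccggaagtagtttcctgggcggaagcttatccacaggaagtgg
Rplp0 (GRCm38.p6, chr5:115559427-115559486, plus strand): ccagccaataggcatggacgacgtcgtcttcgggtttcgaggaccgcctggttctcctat
Rpl22l1 (GRCm38.p6, chr3:28805468-28805527, plus strand): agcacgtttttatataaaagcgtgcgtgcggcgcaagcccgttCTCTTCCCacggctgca
Rps27l (GRCm38.p6, chr9:66946046-66946105, plus strand): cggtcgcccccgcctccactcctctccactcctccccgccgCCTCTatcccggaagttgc

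On the sense strand, a run was read from a C at the annotated start, whatever came before it. Such a run stood in 14 of the 76 windows of members (18.4%) and in 823 of all 32851 RefSeq windows (2.51%). A run read from a C within 10 bases of the start stood in 55.3% of the members' windows and in 30.7% of all windows. Other fixed motifs were searched on both strands over the whole window, and overlaps with other motifs were allowed. CCATNTT, a core of YY1 sites, was found in 34.2% of the members' windows against 16.1% of all windows. CCGGAAG, a core of ETS-family sites, was found in 35.5% against 8.86%, and TATAAA in 10.5% against 13.6%. These are matches of letters in a window of RefSeq's starts and say nothing of binding.

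Each array held 59305 non-control spots, no spot was saturated, and the number of arrays limits the precision. Values below are log2 of the processed spot intensity minus the array's 75th percentile, so that 0 is that percentile, and differences are knockout minus control. The targeted gene Islr read 1.57, 1.24 and 1.21 in control replicates 1, 2 and 3, the first from a spot marked as an outlier by the scanner software, and -1.40, -0.93 and -1.31 in the knockouts. The groups did not overlap, and the difference was -2.44 (SE 0.21, limma adjusted p = 0.0171, outlier-marked spot left out; exact permutation p = 0.1, two-sided, the smallest that 3 against 3 arrays allow). Without knockout replicate 3 the call was lost (limma adjusted p = 0.0580), and without control replicate 2 or 3 too few usable values remained for the test. All 6 arrays sat on 1 slide, with the controls in 1 row of it and the knockouts in the other, so row and genotype cannot be told apart. The labels number the mice but give no batches, so the p-values measure only the spread between these samples. In bulk tissue, fewer cells of a type and less RNA per cell cannot be told apart.

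Ribosomal protein transcripts were among the brightest of the array in every sample, and none passed the test between genotypes. On each array, 135 to 139 of the 149 probes (90.6% to 93.3%) were among the brightest 10% of spots, and 147 exceeded background clearly on each of the 6 arrays. Of 76 genes tested, 0 were called at a 5% false discovery rate by limma and 0 had an unadjusted p under 0.05, against 3.82% of all 16451 named genes called and 28.2% with an unadjusted p under 0.05. By probe, 0 of 116 were called and 1, a dim probe of Rps15a, had an unadjusted p under 0.05, against 3.97% (1.55% higher and 2.42% lower) and 26.8% of all 35351 probes. The number of ribosomal protein genes called was also 0 under each other processing setting and each left-out sample that was run, including array weights, under which 9292 of all probes were called.

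The differences were small and leaned one way under the scaling used. The tested genes had a median difference of 0.12 (range -0.16 to 0.24), with 73 higher and 3 lower in the knockouts, whereas quantile normalization put 26 of 76 higher, with a median of -0.02. All named genes had a median of 0.01 with 51.2% higher. The median size of the difference, sign left aside, was 0.12 for the ribosomal protein genes and 0.33 for all named genes. A difference that misses the threshold does not show equal levels, so the 95% intervals are given as bounds. They lay within 2-fold either way for 75 of the 76 genes, with Rpl10l the exception, and within 1.5-fold for 52, and their median half-width was 0.42 on the log2 scale.

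**Figure D1:**
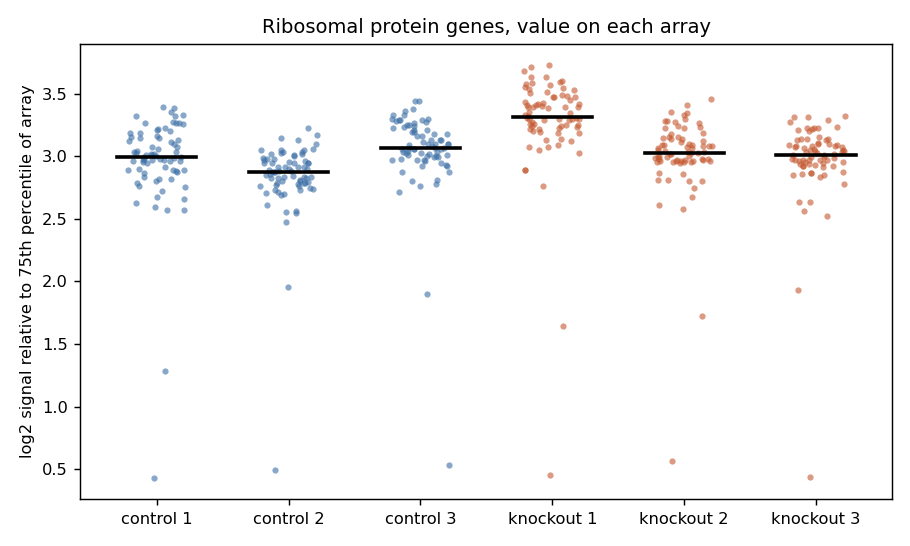
Points are the 74 tested ribosomal protein genes with a mean above 0, 1 probe each, on the 6 arrays; the y axis is log2 intensity minus the array's 75th percentile, outlier-marked spots are included, and the bars are array medians over all 76 tested genes. The medians of the groups overlap: knockout replicate 1 is highest and control replicate 2 lowest, while Rpl37 and Rpl10l lie far below the axis and are left out.

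Knockout replicate 1 and control replicate 2 held the ends of the range. The median over the tested genes was 2.99, 2.87 and 3.07 on the control arrays and 3.32, 3.03 and 3.01 on the knockout arrays, outlier-marked spots included. The groups overlapped, since control replicate 3 was above knockout replicates 2 and 3, and the difference of 0.14 was as large as the pooled SD of 0.14. Among the 49 genes with usable values on all 6 arrays, knockout replicate 1 held the highest value for 45 and control replicate 2 the lowest for 41. For 2 of those 49 genes, Rpl14 among them, every knockout value lay above every control value, compared with 34.5% of 30240 probes whose groups did not overlap in either direction. Without knockout replicate 1, the same 49 genes had a median of 0.02, with 35 higher, in place of 0.14 with 48 higher. Over the genes that could be tested each time, the median of 0.12 (76 genes) became 0.04 without knockout replicate 1 (76 genes). It was 0.06 without control replicate 2 (68 genes) and 0.19 without knockout replicate 3 (59 genes), so the sets of genes differ.

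Before scaling the same transcripts read lower in the knockouts. The median intensity of the 149 probes was 47061, 49127 and 51339 units in the controls and 45270, 45099 and 44083 in the knockouts, so that each knockout array lay below each control array. That is a difference of -0.13 on the log2 scale, compared with -0.28 for the 75th percentile of all spots, -0.31 for the median and -0.11 for the 99th percentile. With the 75th percentile subtracted, the tested ribosomal protein genes stood on the higher side (median 0.12), as they did with median centring (0.13, 68 of 76 higher). Under quantile normalization they did not (median -0.02). Why the scalings differ was not tested.

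Other bright probes leaned the same way under this scaling. Of 1154 tested probes with a mean above 2.5, 0 were called by limma, 50 had an unadjusted p under 0.05, and 90.5% were higher in the knockouts (median 0.16). As many of the brightest probes had a median of 0.013 under quantile normalization (0.019 with normexp) and 0.076 without knockout replicate 1. Within that range the 104 ribosomal protein probes had a median of 0.09 and the other 1050 probes a median of 0.17. Calls became rarer with brightness, from 4.96% of probes with a mean between -4 and -2 to 1.64% between 1 and 2 and 0 above 2.5. The median SE was 0.24 in the first of these ranges and 0.18 in the second and above 2.5. The median size of the difference, sign left aside, was 0.37 in the first, 0.23 in the second and 0.16 above 2.5. Median ribosomal protein signal was 0.14 to 0.24 below the array's own 99th percentile on the log2 scale. The part of brightness in the ribosomal protein differences was not tested.

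**Figure D2:**
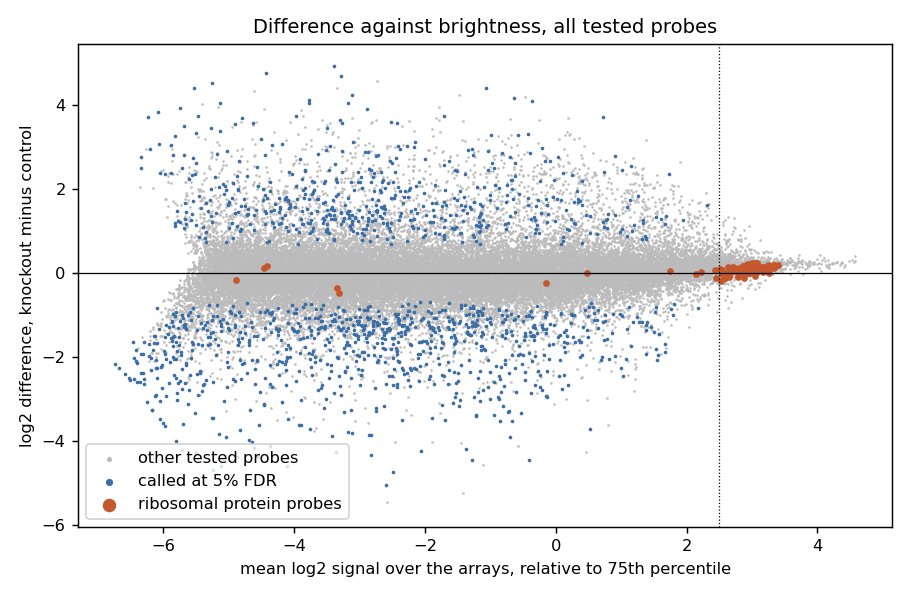
Each point is a tested probe, with its mean log2 level over the arrays on the x axis and its knockout minus control difference on the y axis; ribosomal protein probes are orange, probes called at a 5% false discovery rate blue, and the dotted line stands at 2.5. Most ribosomal protein probes crowd the bright end, where 0 of 1154 probes were called, and their median there is 0.09; under quantile normalization the family's median turns to -0.02.

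Of the 3 stalk genes, Rplp0, which builds the base of the stalk and is a common reference gene in quantitative PCR, read 3.08, 2.98 and 3.21 in the controls and 3.43, 3.09 and 3.13 in the knockouts. Knockout replicate 1 was the highest and the other knockouts lay inside the control range, with a difference of 0.13 (95% interval -0.27 to 0.52). Rplp2, a stalk dimer protein, read 2.95, 2.84 and 3.10 in the controls and 3.41, 3.12 and 3.09 in the knockouts. Control replicate 3 lay between knockouts 2 and 3, and its difference of 0.24 was the largest among the 76 genes (SE 0.17, interval -0.15 to 0.64, limma adjusted p = 0.386). Rplp1, the partner of Rplp2 in the dimer, had a difference of 0.06 (interval -0.40 to 0.52). Under quantile normalization Rplp0 was at -0.04.

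The large subunit had 40 of its 43 genes tested, of which 37 were higher and 3 lower, with a median of 0.09. Rpl14 read 3.26, 3.13 and 3.29 in the controls and 3.58, 3.41 and 3.31 in the knockouts. The lowest knockout value lay just above the highest control value, and the difference was 0.20 ± 0.15 (SE; limma adjusted p = 0.422). Rpl35, which lies at the exit of the peptide tunnel, read 2.81, 2.78 and 3.06 in the controls and 3.25, 3.08 and 3.02 in the knockouts. Its groups overlapped through control replicate 3, with a difference of 0.23 (interval -0.15 to 0.61). Rpl36, Rpl3, Rpl10, Rpl22 and Rpl38 were also at the upper end of the subunit, at 0.19 to 0.21.

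Rpl10, which is added late and helps form the peptidyl transferase region, read 3.21, 2.95 and 3.29 in the controls and 3.58, 3.27 and 3.20 in the knockouts. Knockouts 2 and 3 fell inside the control range. Rpl38, needed for translation of a subset of Hox mRNAs in mouse embryos, read 3.03, 2.88 and 3.01 against 3.54, 3.00 and 2.95. Its difference of 0.19 turned to -0.00097 without knockout replicate 1. Rpl11 and Rpl5, which bind MDM2 when ribosome assembly fails, gave little to compare. Rpl11 rested on 2 usable values in each group (difference 0.07, interval -0.46 to 0.60). Rpl5 had 3 marked spots and was not tested, with all spots reading 2.49, 2.62 and 2.93 in the controls and 2.96, 2.78 and 2.70 in the knockouts. Rpl13a, another common reference gene, had a difference of 0.10 from 2 usable values in each group (interval -0.47 to 0.66).

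At the lower end of the large subunit, Rpl37 stood apart. Its probe read -5.09, -4.84 and -4.49 in the controls and -4.82, -5.06 and -5.03 in the knockouts, with overlapping groups and a difference of -0.16 (interval -0.64 to 0.31). Rpl37 has a single probe, about as dim as a transcript near background, although the gene encodes a core subunit. What that probe binds was not tested, and its values may not stand for Rpl37 mRNA. Rpl7 was at -0.08 and Rpl31 at -0.00021, each from 2 usable values in each group. The next values upward were Rpl17 (0.00059), Rpl30 (0.0014), Rpl12 (0.0048), Rpl26 (0.02) and Rpl35a (0.02), all from bright probes with 2 or 3 usable values in each group. The intervals of these 5 lay between -0.60 and 0.61.

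The small subunit had 30 of its 31 genes tested, all with a difference above 0 under the scaling used, although quantile normalization turned 22 of the 30 below 0, Rps6, Rps3, Rps14, Rps15a, Rps27, Rps4x and Rpsa among them. The median was 0.12. Their differences ran from 0.0050 to 0.24, and none was called by limma (0 with an unadjusted p under 0.05).

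Rps6, the substrate of S6 kinase in the mTOR pathway, carries the longest run marked in capitals above. It read 2.66, 2.61 and 2.87 in the controls and 2.89, 2.74 and 2.63 in the knockouts. The groups overlapped fully and the difference was 0.05 (interval -0.33 to 0.43). Rps19 and Rps14, whose loss of a copy causes anaemia in humans, were at 0.17 each (intervals -0.21 to 0.55 and -0.26 to 0.60). Rps14 read 3.32, 3.03 and 3.38 in the controls and 3.71, 3.33 and 3.23 in the knockouts, again with knockout replicate 1 highest and knockouts 2 and 3 inside the control range. Rps3, which lines the mRNA entry channel, was at 0.10 (interval -0.28 to 0.48). Rpsa, also known as a laminin receptor, was at 0.10 on its brighter probe and -0.03 on the dimmer one. Rps27a, made as a fusion with ubiquitin, was at 0.05 (interval -0.39 to 0.49). Rps4x, the X-linked copy, read 1.28, 1.95 and 1.90 in the controls and 1.64, 1.73 and 1.93 in the knockouts on the probe that could be tested, with overlapping groups and a difference of 0.05 (interval -0.48 to 0.59).

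**Figure D3:**
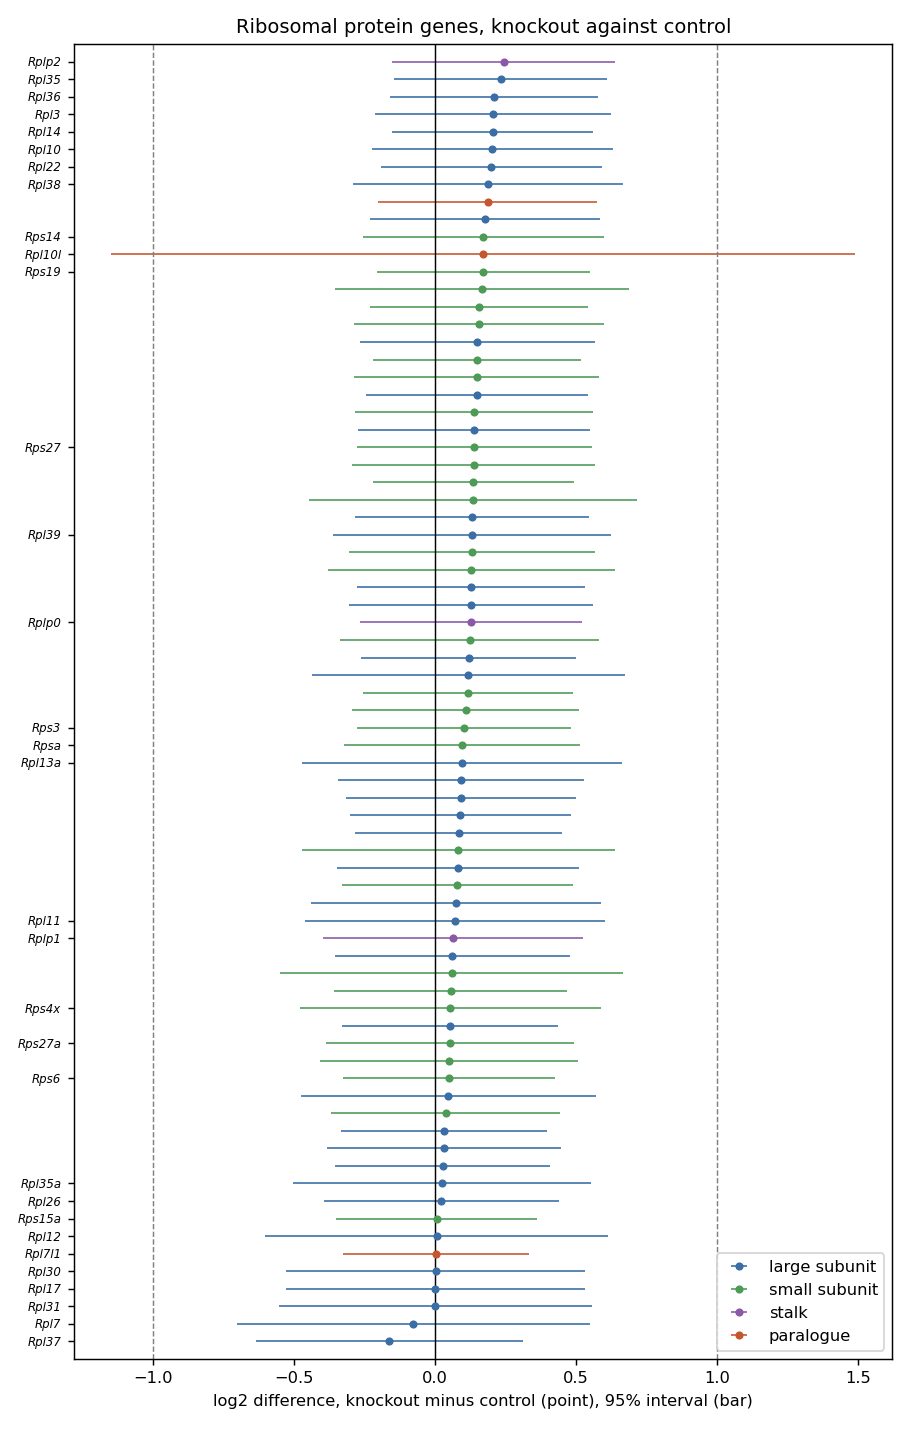
Knockout minus control difference on the log2 scale, with 95% limma intervals, for 74 of the 76 tested ribosomal protein genes, sorted by difference. Many of the genes named in the text are labelled, though not all. Colours show stalk, small subunit, large subunit and paralogue, and dashed lines stand at 2-fold. Each of the intervals spans 0 and the points lie between -0.16 and 0.24 with 71 of the 74 above 0, a direction that turns under quantile normalization (26 of all 76 above 0).

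The paralogues are copies of core subunits, several of them restricted to certain tissues, and 3 of the 7 could be tested. Rpl7l1, which is related to Rpl7, had the narrowest interval of the 76 tested genes. It read 0.43, 0.49 and 0.53 in the controls and 0.45, 0.57 and 0.44 in the knockouts, so the groups overlapped, and the difference was 0.0025 (interval -0.33 to 0.33). Rpl10l, a testis-rich retrocopy of Rpl10, was dim and scattered, at -5.71, -3.51 and -4.29 against -4.75, -4.39 and -3.86. Its interval of -1.15 to 1.49 was the widest of any member, and it turned from 0.17 to -0.43 without control replicate 1. Rpl32l was at 0.19 (interval -0.20 to 0.57), and its probe may also bind Rpl32 transcripts, which was not tested.

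The other 4 paralogues gave values without a test. Rpl22l1, which can take the place of Rpl22, read 1.70, 2.21 and 2.23 in the controls and 1.77, 2.22 and 2.31 in the knockouts, with 4 of the 6 spots marked as outliers. Replicate 1 of each group was low and the others were nearly level, while its partner Rpl22 read 2.95, 2.79 and 3.06 against 3.30, 3.04 and 2.98. Rps27l, a p53-responsive copy of Rps27, read 2.72, 2.48 and 2.61 against 2.83, 2.52 and 2.67 on its brighter probe, with 4 marked spots, and Rps27 had a difference of 0.14. Rpl39l, a copy of Rpl39 known from testis, read -4.47, -5.06 and -5.84 in the controls and -6.0, -5.78 and -6.73 in the knockouts. It was well above background on 2 control arrays and on 0 knockout arrays, and knockout replicate 2 lay above control replicate 3. Its partner Rpl39 was at 0.13 (interval -0.36 to 0.62). Rpl3l, the copy of Rpl3 in heart and skeletal muscle, was not well above background on any array.

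Outlier marks decided how much of the family could be tested. The scanner software marked spots as non-uniform or as outliers of their group, which left no usable value for 36.9%, 4.70% and 10.1% of ribosomal protein probes on the control arrays and for 48.3%, 16.8% and 6.04% on the knockout arrays. Over all spots the shares were lower, at 13.6%, 3.30% and 3.94% and at 16.0%, 9.05% and 3.26%. Replicate 1 of each group was thus the most affected. Too few usable values left Rpl5, Rpl21, Rpl23, Rps25, Rpl22l1 and Rps27l untested, and dimness left out Rpl3l and Rpl39l. No tested probe passed the background filter through 1 group alone. The 51 genes with a usable value on knockout replicate 1 had a median of 0.14 and the 25 without had 0.06. With the marked spots kept, 81 of 82 genes were higher and 0 were called.

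Where a gene had several probes, they did not always point the same way. Of 34 genes with more than 1 tested probe, 13 had probes of both signs. The Rpl3 probes gave 0.21, -0.11 and -0.19, those of Rps18 ranged from -0.12 to 0.12 and those of Rps9 from -0.11 to 0.11. Probes for ribosomal protein mRNAs can also bind the many processed pseudogenes of these genes, which the files do not resolve, so single probes are uncertain.

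A few probes of core subunits were far dimmer than their partners. They were singled out after their values were seen. The 5 with a mean below 0.5 belonged to Rps15a, Rps20, Rpl30, Rps27a and Rpl37, and 4 of the 5 were lower in the knockouts (median -0.25), with 0 called. The dim Rps15a probe read -3.14, -3.02 and -3.05 in the controls and -3.90, -3.36 and -3.39 in the knockouts. Its groups did not overlap and the difference was -0.48 (interval -0.94 to -0.03, limma adjusted p = 0.165). The bright Rps15a probe read 2.57, 2.55 and 2.72 against 2.76, 2.58 and 2.52, a difference of 0.0050 with an interval of -0.35 to 0.36. For Rps20 the dim probe was at -0.36 and the brighter ones at 0.08 and 0.13. For Rpl30 the dim probe was at -0.25. What the dim probes bind was not tested.

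**Figure D4:**
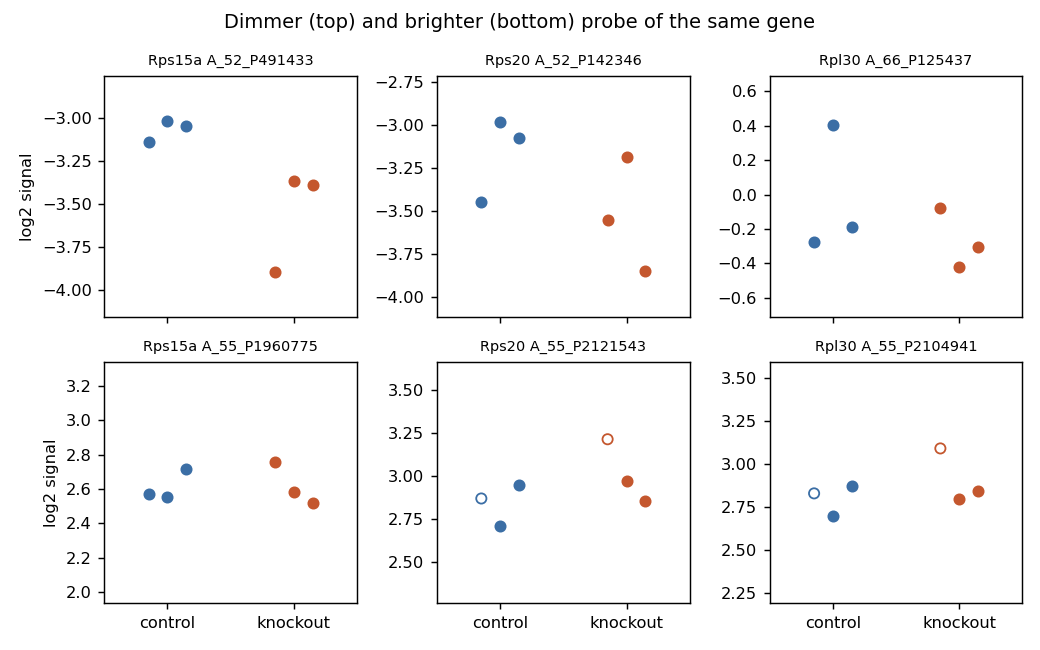
Log2 level on each array for genes with a bright and a dim probe, controls and knockouts side by side, with open circles for outlier-marked spots; the y axis spans the same number of log2 units in each panel. The dim Rps15a probe is lower on all 3 knockout arrays (difference -0.48), whereas its bright probe gives 0.0050.

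Members were split by a pyrimidine run read from a C at the annotated start, whatever came before it, and their differences overlapped. A run could be read from a C within 10 bases of the start in 40 of the 64 members with windows. Genes without a run at the start can thus hold one nearby, and the split cannot show whether the run matters. The 14 tested genes with a run read from the annotated start had a median difference of 0.13 (range 0.0050 to 0.24). The 43 tested genes with a window but no such run had a median of 0.11 (range -0.16 to 0.20). Rplp2, at the top of the order, and Rps15a, near its foot, both carry the run. These medians move with the scaling as the whole family does.

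Ribosome biogenesis genes, whose products make ribosomal RNA and assemble the subunits, were mostly lower in the knockouts. Of 52 genes in the list 48 were tested, 0 were called by limma, 10 had an unadjusted p under 0.05 (28.2% of all named genes had), 41 were lower and 7 higher, and the median was -0.28, beside 0.01 for all named genes. With array weights 15 of the 48 were called, all lower, beside 9292 of all 35351 probes. With normexp, or with another rule for the probes of a gene, 1 or 2 were called. The median stayed below 0 under each of the other settings run, whereas the ribosomal protein median was above 0 except under quantile normalization, and leaving out samples moved it between -0.40 and -0.22. Rrs1, a factor of large-subunit assembly chosen for display after its values were seen, read 0.24, -0.13 and -0.14 in the controls and -0.98, -0.69 and -0.67 in the knockouts. The groups did not overlap, as for 34.5% of probes, and the difference was -0.77 (SE 0.18, limma adjusted p = 0.0636). It was called with normexp (limma adjusted p = 0.0476, or 0.0441 with quantile normalization) and with array weights (0.0192). Gnl3, nucleostemin, was the lowest of the 48 at -1.53 (adjusted p = 0.0971, limma) from 2 usable values in each group. It was called with array weights (limma adjusted p = 0.0332). Fbl was at -0.27, Ncl at -0.15 and Npm1 at -0.07. Eif6, which keeps the subunits apart until the large one is mature, was the highest of the 48 at 0.52 (interval -0.05 to 1.08).

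The other groups of the translation machinery held 0 called genes each by limma. Of the mitochondrial ribosomal protein genes, which form a separate ribosome, 65 of 78 were tested, 3 had an unadjusted p under 0.05, 51 were higher and 14 lower, and the median was 0.11. That median was 0.0098 with 37 of 65 higher under quantile normalization and 0.016 with 35 of 65 higher without knockout replicate 1. Translation factors had 30 of 32 tested, 0 with an unadjusted p under 0.05, 20 higher and 10 lower, and a median of 0.04, which turned to -0.06 with 4 of 30 higher under quantile normalization and to -0.0073 without control replicate 2. The other TOP mRNAs and ribosome-fused genes had 7 of 12 tested, 0 with an unadjusted p under 0.05, 5 higher and 2 lower, and a median of 0.06, which turned to -0.012 with 3 of 7 higher under quantile normalization. Leaving out samples moved it between 0.045, without control replicate 2, and 0.21, without knockout replicate 2. Fau, a ubiquitin-like fusion to a small-subunit protein, was at 0.18, Rack1 at -0.05 and Tpt1 at 0.06.

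Regulators of ribosomal protein synthesis had 17 of 20 tested, 3 with an unadjusted p under 0.05, 7 higher and 10 lower, and a median of -0.01. Myc, which drives ribosome production, read -0.55, -0.13 and 0.04 in the controls and -1.17, 0.55 and -0.66 in the knockouts, with full overlap and a difference of -0.21 (interval -1.26 to 0.83). Mtor was at 0.14 and Larp1 at 0.09, with intervals of -0.39 to 0.66 and -0.30 to 0.49. The ends of this list, named after their values were seen, were Mycn at -1.02 (limma adjusted p = 0.0613) and Mlx at 1.22 (limma adjusted p = 0.0596). Mlx rested on 4 usable values. Both were called with normexp, with array weights (as were 9292 of all 35351 probes) and without control replicate 1. Mycn was also called with median centring, and Mlx also with quantile normalization and without both replicates 1. The limma adjusted p-values were 0.0128 to 0.0493 for Mycn and 0.0117 to 0.0484 for Mlx. The Mlx difference stayed at 1.22 without control replicate 1 and without both replicates 1, so these fits used the same 4 values as the main fit.

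**Figure D5:**
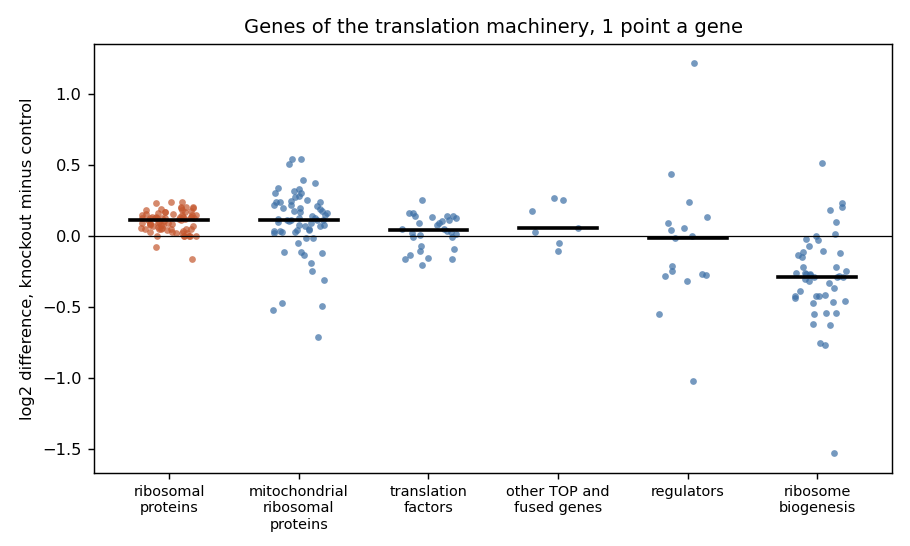
Knockout minus control difference on the log2 scale for each tested gene of the ribosomal protein set and of the other translation lists, with the median of each as a bar. The ribosomal protein genes lie between -0.16 and 0.24 at a median of 0.12 (-0.02 under quantile normalization), and ribosome biogenesis genes have a median of -0.28.

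Markers of the tissues of the colon were measured on all arrays, including epithelium, smooth muscle, fibroblasts, endothelium and enteric nerves. Of all 16451 named genes tested, 3.82% were called by limma and 51.2% were higher in the knockouts. Those of differentiated epithelium had 14 of 14 tested genes higher (median 1.08, 0 called). Their summed level was 4.78 to 6.56 in the controls and 6.68 to 7.13 in the knockouts. Smooth muscle had 8 of 8 higher (median 0.36, 0 called), with summed levels of 5.53 to 5.84 and 5.95 to 6.19. Both sums were highest in knockout replicate 1, as for the ribosomal protein genes. The summed mitochondrial ribosomal proteins (7.82) and translation factors (7.48) were highest on that array too. Proliferation markers had 23 of 23 lower (median -0.50, 0 called), with summed levels of 4.31 to 5.32 and 4.27 to 4.82 that overlapped. Endothelial markers had 9 of 9 lower (median -1.17, 0 called), and were lowest in knockout replicate 1 at a summed level of 1.92. Neutrophil genes had 7 of 8 called, 6 lower (Camp, Cxcr2, Mmp8, Retnlg, S100a8 and S100a9) and Ltf higher, and summed levels of 4.32 to 4.40 against 3.37 to 3.47. Fibroblast markers had 9 of 9 lower (median -0.41) with Pdgfrb called, and macrophage markers 8 of 9 lower (median -0.75) with Marco called. B and plasma cell markers had 9 of 9 lower (median -0.88) with Fcrla and Tnfrsf17 called. Enteric nervous system markers had 7 of 8 lower (median -0.44, 0 called), T cell markers 7 of 9 (median -0.19, 0 called) and adipocyte markers 2 of 8 (median 0.31, 0 called). The summed adipocyte level was highest in control replicate 1 at 4.68. It was 2.30 and 2.42 in control replicates 2 and 3 and 3.24 to 3.58 in the knockouts. The part of these cell types in the ribosomal protein values was not tested.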

How the data were processed

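Colon RNA of 3 control and 3 Islr knockout mice was measured on 1 single-colour Agilent array (design 074809) per mouse, and groups came from the genotype in the labels. The deposited processed signal is an intensity on a linear scale, background-subtracted by Feature Extraction 11.5.1.1, per the file headers; the submitters' processing notes name version 10.7. Labels name Cy3 and a green column, whereas the files hold the red channel, which was used. The series' value table, deposited by the authors, holds intensities too and served as an alternative.

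From each log2 intensity the 75th percentile of its array, taken over non-control spots, was subtracted. Spots marked as non-uniform or population outliers were set to missing, and spots of a probe were averaged. A probe was tested if each of the 3 arrays of 1 group or both was well above background and each group kept at least 2 usable values (35351 of 56605). lmFit and eBayes of limma 3.58.1 (R 4.3.3) gave differences, moderated standard errors and Benjamini-Hochberg adjusted p-values over all tested probes, with genotype as the only term. Procedures were tested on simulated data. Probes were named through RefSeq accessions in GRCm38.p6, for 33767 probes. The probe with the highest mean stood for a gene.

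Named were Islr, called members and the 10 highest and 10 lowest differences. Subunits with a fixed role, paralogue pairs and called genes of other lists were named too. Further genes lie outside this rule, and only some of them are marked as chosen after their values were seen. The members and lists were chosen with earlier results of these data known. Alternatives were other scalings, normexp with an offset of 50, outlier spots kept, other filters, probe rules, array weights and leaving out each array. Some members and list genes that this rule names are not reported here.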

Additional observations from a re-analysis of the deposited data

How the results depend on the processing

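The ribosomal protein genes kept 0 calls under every setting run, and the direction of their median turned under quantile normalization, with normexp and without (-0.02 each), while the other settings left it above 0. With 3 arrays a group and outlier marks on many bright spots, the median 95% half-width of 0.42 limits what could be seen. Leaving out knockout replicate 1 gave the lowest median (0.04, 76 genes tested) and leaving out knockout replicate 3 the highest (0.19, 59 genes tested). The causes of the changes below were not tested. The setting without control replicate 1 and knockout replicate 1 was chosen after seeing the data. No paired analysis was possible because the labels give the groups no shared replicate numbers. With outlier spots kept, reversed differences were Rpl7 0.023, Rpl31 0.14, Rack1 0.063. With median centring, reversed differences were Rpl17 -0.0016, Rpl30 -0.00088, Rpl26 -0.028, Npm1 0.0091, and regulators of ribosomal protein synthesis had a number called of 1. With quantile normalization, reversed differences were Rpl17 -0.072, Rpl30 -0.063, Rpl7l1 -0.021, Rpl12 -0.096, Rps15a -0.16, Rpl26 -0.034, Rpl35a -0.053, Rplp0 -0.039, Rpsa -0.073, Rps6 -0.11, Rps3 -0.060, Rps14 -0.012, Rpl39 -0.046, Rps27 -0.020, Rps4x -0.081, Larp1 -0.012, Tpt1 -0.012, and regulators of ribosomal protein synthesis had a median of -0.14, regulators of ribosomal protein synthesis had a number called of 1. With normexp, 75th percentile, reversed differences were Rpl37 0.052, Rpl7 0.051, Rpl31 0.042, Rpl30 -0.028, Rpl7l1 -0.037, Rack1 0.071, and ribosome biogenesis had a number called of 1, regulators of ribosomal protein synthesis had a number called of 2, mitochondrial ribosomal proteins had a number called of 1. With normexp, quantile normalization, reversed differences were Rpl17 -0.061, Rpl30 -0.12, Rpl7l1 -0.057, Rpl12 -0.010, Rps15a -0.15, Rpl26 -0.075, Rpl35a -0.075, Rpl10 -0.0014, Rpl14 -0.0051, Rplp0 -0.049, Rpsa -0.082, Rps6 -0.10, Rps3 -0.038, Rps14 -0.010, Rpl39 -0.035, Rps27 -0.00076, Rps4x -0.036, Tpt1 -0.012, and ribosome biogenesis had a number called of 2, regulators of ribosomal protein synthesis had a median of -0.11, regulators of ribosomal protein synthesis had a number called of 2, mitochondrial ribosomal proteins had a number called of 1. With 3 usable values required in each group, regulators of ribosomal protein synthesis had a median of -0.23. With the series' value table, reversed differences were Rpl7 0.049, Rpl31 0.17, Npm1 0.0029, Rack1 0.090. With array weights, reversed differences were Rpl7 0.039, Rpl31 0.060, Rpl7l1 -0.0091, Rps15a -0.024, Rps4x -0.074, Rpl10l -0.33, Rack1 0.031, Rps27a dimmer probe -0.11, and ribosome biogenesis had a number called of 15, regulators of ribosomal protein synthesis had a number called of 4, mitochondrial ribosomal proteins had a number called of 6. Of all 35351 probes, 9292 were called with these weights. With the mean difference over the probes of a gene, and the lowest adjusted p among those probes, ribosome biogenesis had a number called of 1. With the dimmest probe of a gene, ribosome biogenesis had a number called of 1. Without control replicate 1 and knockout replicate 1, reversed differences were Rpl7l1 -0.0084, Rps15a -0.087, Rpsa -0.016, Rps6 -0.055, Rps4x -0.098, Rpl10l -0.22, Larp1 -0.052, Rps27a dimmer probe -0.059, and regulators of ribosomal protein synthesis had a number called of 1, mitochondrial ribosomal proteins had a number called of 1. Leaving out each array in turn, as far as a probe could still be tested (4 of the 6 arrays for Islr, Npm1, Rpl26, Rps27a and Tpt1), these results ranged as follows: regulators of ribosomal protein synthesis (median) from -0.20 to 0.015, regulators of ribosomal protein synthesis (number called) from 0 to 2, mitochondrial ribosomal proteins (number called) from 0 to 1, Rpl7l1 from -0.038 to 0.027, Rps15a from -0.070 to 0.057, Rps4x from -0.16 to 0.18, Rpl10l from -0.43 to 0.67, Rps27a dimmer probe from -0.12 to 0.34, Rpl26 from -0.029 to 0.063, Rps27a from -0.028 to 0.10, Tpt1 from -0.015 to 0.12, Rpl38 from -0.00097 to 0.29, Rpsa from -0.026 to 0.19, Rps6 from -0.014 to 0.14, Myc from -0.70 to 0.16, Larp1 from -0.00036 to 0.18, Islr from -2.58 to -2.34, Npm1 from -0.16 to 0.021. Without knockout replicate 3, Islr was at -2.39 with a limma adjusted p of 0.058; over those 4 fits its adjusted p ranged from 0.013 to 0.058.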
